A study of Mus musculus with 4 samples.

Results

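The collagens described here are the chains that do not belong to basement membranes or vessel-wall networks. They were chosen by symbol: of 44 measured genes named as a collagen alpha chain, the 10 starting Col4a, Col8a, Col15a or Col18a were left out, and 34 of the 32286 features of the table remained. The cells were interstitial (non-cardiomyocyte) cells of mouse hearts taken 1 month after stroke (2 samples) or a control condition (2 samples). All animals carried Ccr2creERT2-Ai14, in which an inducible Cre recombinase is driven by the Ccr2 gene, a gene of monocytes and some other immune cells, and switches on a tdTomato reporter. Age, the kind of control and the inducing agent are not given in the labels. The tissue was digested for 30 min, strained, cleared of red and dead cells and sorted for live nucleated cells, and transcripts were counted at their 3′ ends as unique molecular identifiers (UMIs) by droplet sequencing.

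The deposited table holds 4 numbered libraries that no label ties to a sample, so stroke and control were not compared and the table was treated as 1 sample without replicates. No p-value is given. The libraries kept 8600 to 9970 cells each, 37465 in all, with medians of 2568 to 3484 UMIs per cell. Barcode sequences found in more than 1 library numbered 161 of 39570 (0.407%). Levels are UMIs of a gene scaled to a class total of 1e6 UMIs (CPM), with no scaling by gene length. This assumes that a transcript is counted at its 3′ end only, which was not tested, and the labels do not say whether introns were counted. Intervals are exact 95% intervals, Poisson for levels, conditional binomial for ratios and Clopper-Pearson for the proportion of cells with a UMI, and they cover counting error only.

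Collagens are secreted or membrane proteins whose alpha chains wind into a triple helix. Fibril-forming types I, III and V build the load-bearing network of the heart wall, fibril-associated types (FACITs) coat the fibrils, type VI makes beaded filaments near the cell surface, and transmembrane types stay anchored in the membrane of the cell that makes them. In the heart, fibroblasts are known as the main source of types I and III, and the balance of these chains bears on the stiffness of the scar and the wall. Cells were grouped into 25 classes or clusters without any collagen or collagen-pathway gene. The 20 named classes are written as X-like, since the names rest on marker RNA, and 5 further clusters are called by leading genes. Fibroblast-like cells held all 8 of their fixed markers at 2-fold or more over other cells (summed level 4699 CPM), and Schwann-like cells held 8 of 9 of theirs, with 1 at 0. Valve-type endocardial-like cells were named from a shorter list (Cytl1, Hapln1, Dkk3 and Wnt9b); on the longer lists the venous one scored highest in them, with 5 of its 7 markers at 2-fold.

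Proximal promoters, from 250 bases before to 50 after an annotated start, were available for 26 of the 34 members (28 windows, RefSeq, build GRCm38.p6). The 4 shown belong to a pair of chains highest in fibroblast-like cells (Col1a2, chr6:4505368-4505667, and Col3a1, chr1:45311288-45311587), a chain highest in Schwann-like cells (Col16a1, chr4:130047590-130047889) and one highest in endocardial-like cells (Col23a1, chr11:51289670-51289969), all on the + strand, so that windows of genes with different patterns can be read side by side. Capitals mark the letters CCAAT or TATAAA on either strand (ATTGG and TTTATA on the printed one).
Col1a2: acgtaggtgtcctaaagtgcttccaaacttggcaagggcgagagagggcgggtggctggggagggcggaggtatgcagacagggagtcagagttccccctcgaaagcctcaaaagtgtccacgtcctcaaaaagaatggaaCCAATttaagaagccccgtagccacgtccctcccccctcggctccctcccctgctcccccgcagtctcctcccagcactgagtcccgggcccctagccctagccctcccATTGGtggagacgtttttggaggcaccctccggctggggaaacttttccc
Col3a1: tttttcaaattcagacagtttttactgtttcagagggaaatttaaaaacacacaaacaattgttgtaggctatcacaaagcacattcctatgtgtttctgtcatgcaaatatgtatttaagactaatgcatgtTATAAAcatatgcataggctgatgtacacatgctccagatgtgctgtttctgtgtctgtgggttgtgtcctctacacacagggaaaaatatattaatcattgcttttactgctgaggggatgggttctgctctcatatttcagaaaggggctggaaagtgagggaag
Col16a1: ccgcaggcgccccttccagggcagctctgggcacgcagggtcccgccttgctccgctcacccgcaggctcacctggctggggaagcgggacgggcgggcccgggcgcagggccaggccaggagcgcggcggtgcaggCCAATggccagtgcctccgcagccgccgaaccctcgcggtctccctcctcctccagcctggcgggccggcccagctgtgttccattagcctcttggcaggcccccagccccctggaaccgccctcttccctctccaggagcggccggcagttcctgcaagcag
Col23a1: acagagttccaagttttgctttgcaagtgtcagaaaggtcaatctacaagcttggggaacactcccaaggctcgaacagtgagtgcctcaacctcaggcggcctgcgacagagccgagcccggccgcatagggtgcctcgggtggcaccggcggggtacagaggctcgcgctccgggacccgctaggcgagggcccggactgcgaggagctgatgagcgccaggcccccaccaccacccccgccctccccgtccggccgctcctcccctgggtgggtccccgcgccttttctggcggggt
The Col1a2 window held 2 CCAAT matches and was 61.0% G and C with 13 CpG dinucleotides. Col3a1, its neighbour in level, held 1 TATAAA match, was 37.7% G and C and held 0 CpG. The Col16a1 window held 1 CCAAT match and the Col23a1 window neither motif, with 24 CpG in each. CCAAT was present in 9 of the 28 windows of members and in 37.4% of all 32851 promoter windows, and TATAAA in 5 of 28 and in 13.6% of all. The members' windows had a median of 58.8% G and C and 10 CpG, and all windows 52.7% and 7. The windows of Col1a2 and Col3a1 thus differed in composition although both genes had the same highest class. Col3a1 (chromosome 1, 45311538 to 45349706, + strand) and Col5a2 (45374321 to 45503282, - strand) are neighbours in the mm10 annotation, as are Col6a1 and Col6a2 on chromosome 10. Another annotated gene lies on the same strand within 11 of the 34 members, Col1a2, Col3a1, Col5a2 and Col6a3 among them, and the splitting of reads between such genes was not tested.

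Fibroblast-like cells carried most of the collagen message. They were 7806 cells (20.8% of all) and, with a median of 6520.5 UMIs per cell, held 52552689 of the 146515313 UMIs of all genes. They gave 290903 of the 328894 UMIs of the members, 88.4% (88.3 to 88.6). Their summed level was 5535 CPM (5515 to 5556), and in libraries 1 to 4 it was 5606, 5749, 6260 and 4852 CPM. The sums of the other classes lay lower: 3843 CPM in Schwann-like cells, 3735 CPM in the Gsta3 Lgals1 Atf5 cluster, 3061 CPM in the Wif1 Postn cluster, 2990 CPM in epicardial-like cells, 1744 CPM in pericyte-like cells, 1397 CPM in smooth muscle-like cells and 1042 CPM in endocardial-like cells. The smooth muscle-like sum was 904, 5121, 700 and 1544 CPM in libraries 1 to 4, and library 2 held 13 of its 125 cells. The 8 fibroblast markers summed to 4043 CPM in the Gsta3 Lgals1 Atf5 cluster, with 3 of them at 2-fold over other cells, and to 2615 CPM in the Wif1 Postn cluster, with 1 at 2-fold. Schwann-like cells had 445 CPM and endocardial-like cells 79.8 CPM of them, with 0 at 2-fold. In the Gsta3 Lgals1 Atf5 cluster the fibroblast list scored highest of all lists. Its mean log2 fold there was 0.955, just under the 1 required for a name, so these cells were left out of the fibroblast-like class. In cells that should lack collagen, the sum was 51.1 CPM in B cell-like, 41.8 CPM in neutrophil-like and 104 CPM in T cell-like cells. NK cell-like cells had 99.6 CPM, with 242 CPM in library 1. Capillary-like cells, at 74.7 CPM, lay below the T cell-like and NK cell-like sums. The B cell-like sum was 82.9, 34.6, 26.7 and 134 CPM in libraries 1 to 4, in which fibroblast-like cells made up 34.0%, 20.8%, 7.44% and 20.01% of cells. The part of such stray collagen RNA in the low values of other classes was not tested.

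Of the 34 members, 22 had at least 100 UMIs in the analysed cells. Of these 22, 16 were at least 2-fold higher in fibroblast-like cells than in all other cells, against 11.6% of the 15597 genes that passed the same filter. Their median ratio was 6.95, and that of all such genes 0.887. All 8 fibril-forming and all 4 type VI members that passed the filter were among the 16, as were 3 of 5 FACITs, 0 of 3 transmembrane types and Col26a1. By highest class, 10 of the 20 members that also had 20 UMIs there were highest in fibroblast-like cells (3.09% of 11756 genes), 6 in Schwann-like cells (4.7%), 2 in endocardial-like cells (2.48%), 1 in venous-like cells (1.59%) and 1 in the Wif1 Postn cluster (3.89%). Since a gene could enter through the class where it is high, these counts describe the genes that passed and not the other members. At 2-fold over all other cells there were also 4 members in the Wif1 Postn cluster (7.19% of genes), 3 in valve-type endocardial-like (4.89%), 2 in venous-like (4.09%), 2 in epicardial-like (8.65%), 1 in lymphatic-like (7.26%), 1 in smooth muscle-like (8.05%) and 0 in macrophage-like cells (9.39%). Col1a1, Col6a1 and Col6a2 were at 2-fold in the Gsta3 Lgals1 Atf5 cluster and Col28a1 in the Nrp2 Pcdh17 Nav3 cluster. For these clusters the share of all genes was not counted.

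**Figure D1:**
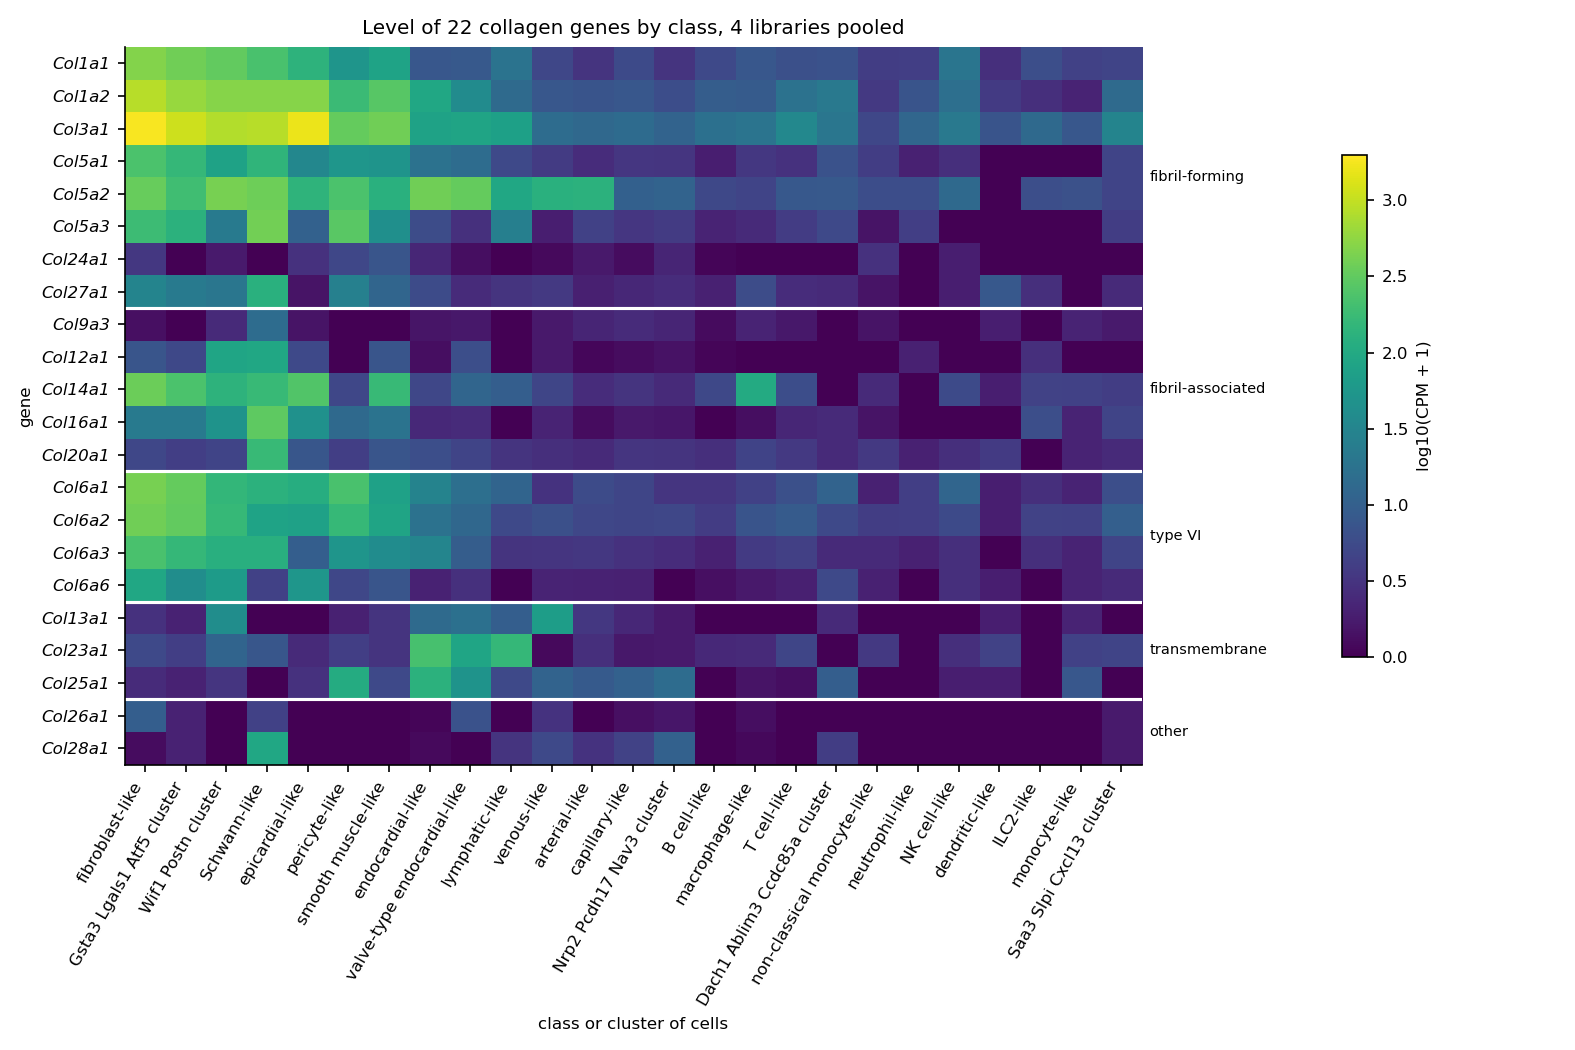
Level of the 22 collagen genes with at least 100 UMIs (rows, by structural family) in 25 classes or clusters (columns), as log10(CPM + 1), with the 4 libraries pooled. Types I, III and VI are brightest on the left in fibroblast-like cells, while Col16a1, Col20a1, Col27a1 and Col28a1 are brightest in Schwann-like cells and Col23a1 and Col25a1 in endocardial-like cells.

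Among the fibril-forming chains, Col3a1, the single chain of type III, had the most UMIs. In fibroblast-like cells it stood at 1766, 2053, 2206 and 1564.5 CPM in libraries 1 to 4, and in epicardial-like cells, next in the order, at 1442, 1798, 1209 and 1585.5 CPM. The ranges overlapped, and in library 4 epicardial-like cells were higher by less than the counting error. Pooled, Col3a1 was at 1841 CPM in fibroblast-like and 1590.0 CPM in epicardial-like cells, a ratio of 1.16 (1.118 to 1.199). Col1a2, the alpha2 chain of type I, was at 866, 938, 1083 and 779.6 CPM in fibroblast-like cells, and Col1a1, the alpha1 chain, at 513, 493, 558 and 421 CPM. Among classes with at least 20 cells in a library, both were highest in fibroblast-like cells in every library. Their pooled levels were 886 and 491 CPM there, 1.42 (1.31 to 1.54) and 1.30 (1.17 to 1.45) times those of the next cluster, the Gsta3 Lgals1 Atf5 cluster. Over the 25 classes Col1a2 ranged down to 1.13 CPM, Col1a1 to 1.77 CPM and Col3a1 to 3.99 CPM.

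At a shallow fixed depth Col3a1 and Col1a2 were found in most fibroblast-like cells and Col1a1 in fewer. With each cell thinned to 1000 UMIs, Col3a1 had a UMI in 5841 of 7755 fibroblast-like cells (75.3%, 74.3 to 76.3), Col1a2 in 55.3% and Col1a1 in 36.1%. Unthinned, the Col3a1 share was 98.0% at a median of 6520.5 UMIs. In B cell-like cells the thinned share was 1.201% (18 of 1499) and the unthinned one 4.48% at a median of 4025 UMIs. Fibroblast-like cells held a median of 3 members per thinned cell, and 72.6% held 3 or more, against 66.7% of Schwann-like, 26.9% of epicardial-like and 4.45% of endocardial-like cells.

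Type V, which starts and limits the growth of type I fibrils, did not follow 1 pattern. Col5a1 behaved like type I: 246, 214, 261 and 219 CPM in fibroblast-like cells in libraries 1 to 4, the highest class in each, and 232 CPM pooled. Col5a2 was spread over unrelated classes. It was at 415, 456, 1114 and 311 CPM in the Wif1 Postn cluster (the library 3 value rests on 4 cells and 27 UMIs), and at 361, 337, 366 and 290.2 CPM in fibroblast-like cells. In endocardial-like cells, the lining of the heart chambers, it was at 395, 459, 465 and 315 CPM, above fibroblast-like cells in each library. Pooled, the Wif1 Postn cluster (414 CPM) and endocardial-like cells (384 CPM) did not differ beyond counting error (ratio 1.08, 0.984 to 1.18), and Schwann-like cells were at 374 CPM (308 to 451) and valve-type endocardial-like cells at 327 CPM (308 to 348). Among classes with 20 cells in a library the highest was the Wif1 Postn cluster in library 1, endocardial-like cells in libraries 2 and 3 and valve-type endocardial-like cells in library 4. Col5a2 stayed above 100 CPM in arterial-like (131 CPM) and venous-like cells (125 CPM), and was at 9.20 CPM in capillary-like and 4.27 CPM in B cell-like cells.

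Col5a3, the alpha3 chain, was highest in Schwann-like cells, the glia of peripheral nerve, with 406, 445, 489 and 328 CPM, against 212, 156, 188 and 155 CPM in fibroblast-like cells. The groups did not overlap, although libraries 2 and 3 held only 17 and 8 Schwann-like cells. Pericyte-like cells, which wrap capillaries, followed with 312, 237, 249 and 273 CPM, also above the fibroblast-like value of each library. Over the pooled libraries Schwann-like cells stood at 398 CPM, pericyte-like cells at 286 CPM and fibroblast-like cells at 182 CPM, and Schwann-like over pericyte-like was 1.39 (1.11 to 1.73).

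Col27a1, a fibril-forming chain known from cartilage, was at 121, 202, 122 and 82.0 CPM in Schwann-like and at 33.4, 28.1, 29.5 and 26.5 CPM in fibroblast-like cells. The Schwann-like values rest on 37 UMIs in all, and each lay above every fibroblast-like value. The pooled ratio was 4.15 (2.91 to 5.75). Col24a1, known from bone and cornea, had 183 UMIs, 126 of them in fibroblast-like cells (2.40 CPM), and its highest class, smooth muscle-like, had 3 UMIs. The cartilage chains Col11a1, Col11a2 and Col2a1 had 60, 75 and 1 UMIs in all analysed cells. Of the first pair, 9 and 14 UMIs lay in the 217 cells of the Wif1 Postn cluster (6.71 and 10.4 CPM), against 46 and 7 UMIs in fibroblast-like cells (0.875 and 0.133 CPM).

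**Figure D2:**
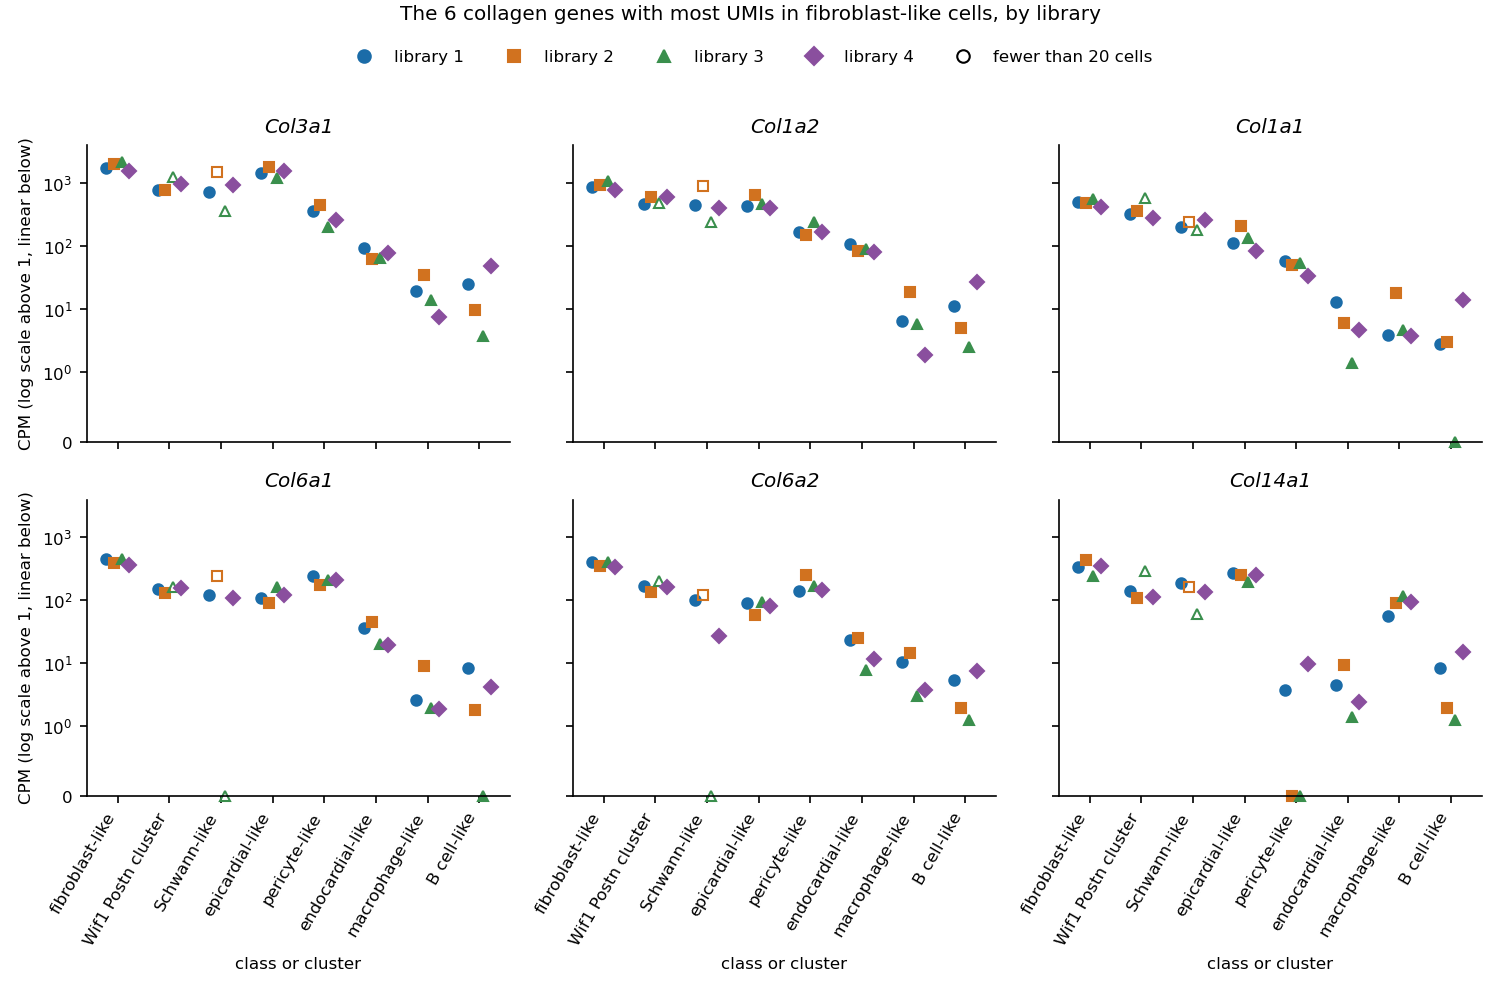
Level of the 6 collagen genes with most UMIs in fibroblast-like cells, in 8 classes or clusters (x axis) and 4 libraries (points; open points rest on fewer than 20 cells), in CPM on an axis that is logarithmic above 1. Fibroblast-like values are the highest or among the highest in each panel, the Col3a1 points of epicardial-like cells reach the same range, and Col14a1 is the panel in which macrophage-like cells rise above B cell-like cells in every library.

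Type VI collagen needs alpha1, alpha2 and one longer chain. Col6a1 was at 459, 390, 458 and 368 CPM in fibroblast-like cells of libraries 1 to 4, and Col6a2 at 410, 358, 407 and 342 CPM. Col6a3, the usual longer chain, was at 226 CPM pooled (libraries 197 to 286) and Col6a6, an alternative one, at 90.5 CPM (74.7 to 124). Each of the 4 was highest in fibroblast-like cells over the pooled libraries, with the Gsta3 Lgals1 Atf5 cluster next for the first 3 and the Wif1 Postn cluster for Col6a6 (64.2 CPM, and the highest in library 2). Over the 25 classes they ranged down to 0.884 CPM for Col6a1 and Col6a2 and to 0 for Col6a3 and Col6a6. Of the other named classes, pericyte-like cells had the most Col6a1 (223 CPM) and Col6a2 (159 CPM), Schwann-like cells the most Col6a3 (118 CPM from 35 UMIs, against 51.3 CPM in pericyte-like cells) and epicardial-like cells the most Col6a6 (53.4 CPM). Col6a5, another longer chain, had 45 UMIs, of which 31 lay in epicardial-like cells (14.9 CPM, 10.1 to 21.2) and 14 in fibroblast-like cells (0.266 CPM). A single cell gave 35.5% of the epicardial UMIs. Col6a4 had 2 UMIs.

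FACITs divided between fibroblast-like, Schwann-like and a few other cells. Col14a1 was at 343, 442, 246 and 354 CPM in fibroblast-like cells, with epicardial-like cells next at 254 CPM pooled (ratio 1.44, 1.32 to 1.57), and in library 3 the Gsta3 Lgals1 Atf5 cluster was the higher. Macrophage-like cells carried Col14a1 at 55.6, 90.2, 119 and 92.7 CPM, 104 CPM pooled, whereas B cell-like cells had 4.14 CPM. Of other fibroblast genes, Col1a1 was at 6.94 CPM in macrophage-like and 4.39 CPM in B cell-like cells, Col3a1 at 17.8 and 15.6 CPM, Dcn at 101 and 75.8 CPM and Pdgfra at 1.82 and 1.76 CPM. Col14a1 thus stood above the B cell-like level in every library, and these other genes stayed near it over the pooled libraries. Single libraries differed. Col3a1 had 15, 38, 51 and 4 UMIs in the 149, 192, 642 and 115 macrophage-like cells of libraries 1 to 4. The 101, 933, 236 and 269 B cell-like cells had 9, 54, 3 and 58. Per cell, Col3a1 was thus higher in macrophage-like cells in libraries 2 and 3 and lower in library 4. With cells thinned to 1000 UMIs, 8.91% of macrophage-like cells (7.28 to 10.8) and 0.267% of B cell-like cells had a Col14a1 UMI; unthinned, 29.9% at a median of 5278 UMIs and 1.30% at 4025.

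Col16a1 had its highest level in Schwann-like cells, 235, 323, 183 and 465 CPM, against 22.7, 22.4, 22.4 and 19.3 CPM in fibroblast-like cells. The pooled level was 303 CPM, 6.16 times (4.44 to 8.60) that of the Wif1 Postn cluster (49.2 CPM). Col20a1 was at 140, 162, 611 and 123 CPM in Schwann-like cells (22, 8, 10 and 9 UMIs), against 4.55, 3.15, 4.39 and 3.97 CPM in fibroblast-like cells. The pooled 165 CPM was 24.5 times (13.3 to 48.1) the next class, epicardial-like cells. For both genes every Schwann-like value lay above every fibroblast-like value. At 1000 UMIs per cell, Col16a1 had a UMI in 31 of 105 Schwann-like cells (29.5%, 21.0 to 39.2), 1.93% of fibroblast-like cells and 0 of 1499 B cell-like cells, which allows a share of up to 0.246%. The unthinned shares were 46.5%, 13.0% and 0%, at medians of 2103.5, 6520.5 and 4025 UMIs.

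Col12a1, known from tendon and other loaded tissue, was at 63.5, 80.8, 122 and 150.3 CPM in Schwann-like cells (27 UMIs in all) and at 95.8, 79.6, 165 and 48.3 CPM in the Wif1 Postn cluster. These classes did not differ beyond counting error (ratio 1.04, 0.659 to 1.596). Fibroblast-like cells had 6.24, 9.17, 3.35 and 4.22 CPM, below all of those values. Of the type IX chains, known as partners of cartilage type II, Col9a1 had 20 UMIs, 13 of them from 13 cells of the Wif1 Postn cluster, Col9a2 had 81, 76 of them in fibroblast-like cells, and Col9a3 had 112, at 13.5 CPM from 4 UMIs in its highest class, Schwann-like cells. Col19a1 had 25 UMIs, 8 of them in smooth muscle-like cells, and Col22a1 had 31.

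Col28a1, known in mouse from peripheral nerve, had 82.5, 80.8, 244 and 82.0 CPM in Schwann-like cells (13, 4, 4 and 6 UMIs), against 0.141, 0.342, 0.628 and 0.338 CPM in fibroblast-like cells. The Schwann-like values were the higher in every library. A single cell gave 33.3% of the 27 UMIs, and the next cluster, the unnamed endothelial-type Nrp2 Pcdh17 Nav3 cluster, had 9.57 CPM. Col26a1 was at 8.70 CPM in fibroblast-like cells (libraries 6.70 to 9.90) and at 5.85 CPM in valve-type endocardial-like cells, which were the higher in libraries 2 and 3.

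In all, 8 of the 22 members with 100 UMIs were at least 2-fold higher in Schwann-like cells than in all other cells (11.5% of genes), and 6 had their highest class there. Fewer than 20 Schwann-like cells in libraries 2 and 3 left those libraries out of the order of classes, and in libraries 1 and 4 Col5a3, Col16a1, Col20a1, Col27a1 and Col28a1 were highest in Schwann-like cells in both and Col12a1 in library 4. FACITs gave 19.3% of the members' UMIs in Schwann-like cells and 7.20% in fibroblast-like cells. The share was 63.8% in macrophage-like, 15.3% in smooth muscle-like (213 CPM) and 10.4% in epicardial-like cells. Schwann-like cells had 222 CPM of Col1a1 and 445 CPM of the summed fibroblast markers, against 491 and 4699 CPM in fibroblast-like cells. The part of fibroblast RNA in these cells was not tested.

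**Figure D3:**
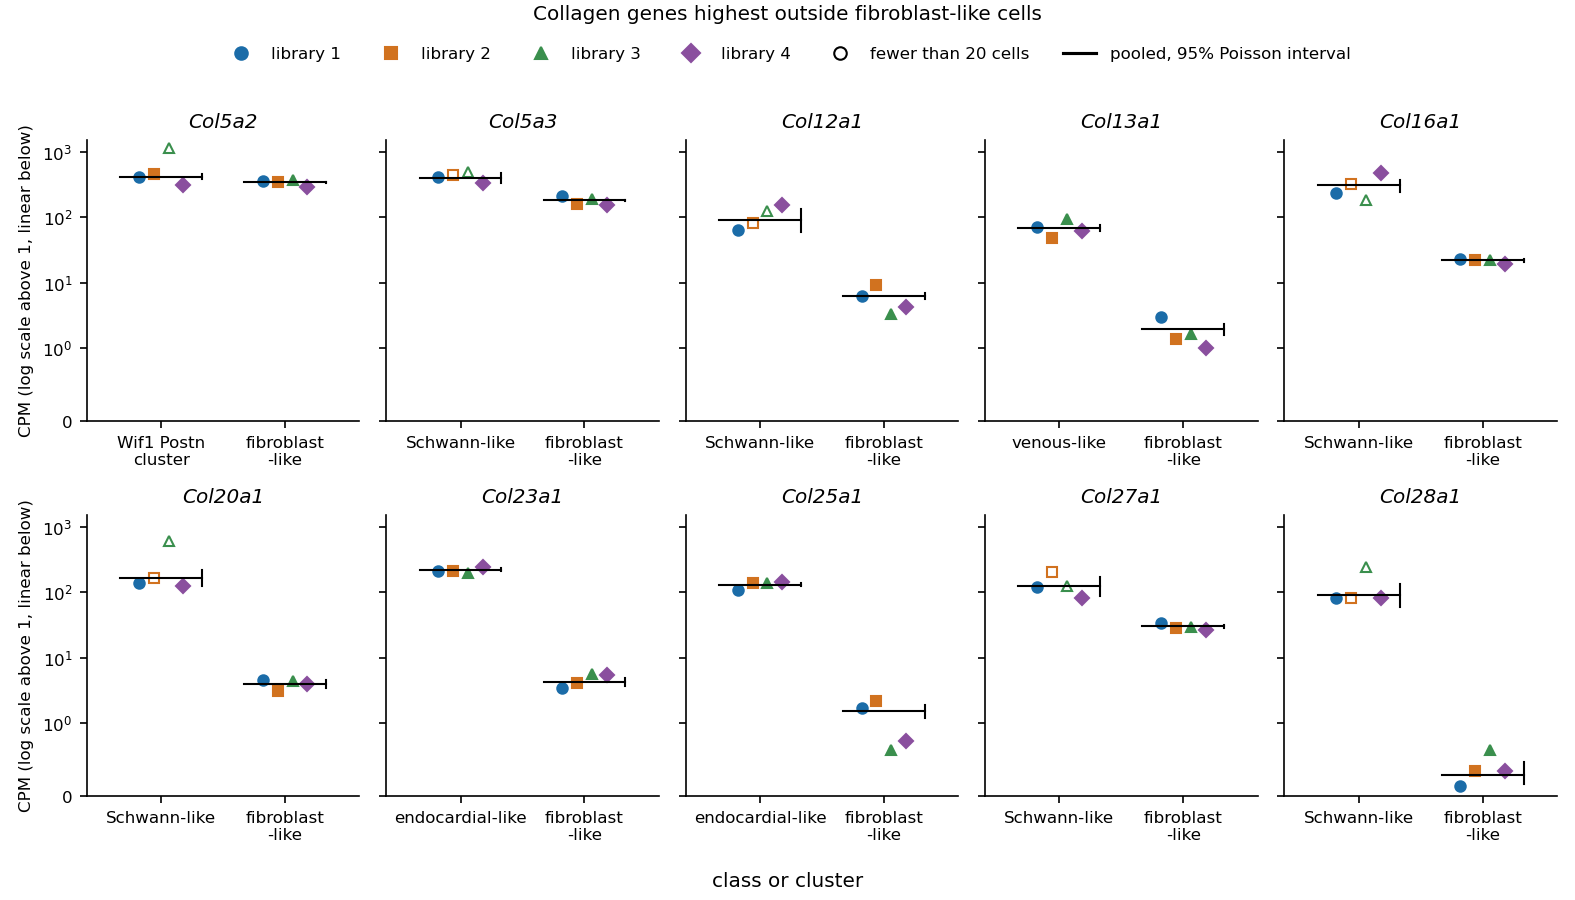
The 10 collagen genes whose highest class is not fibroblast-like, each in its highest class (left) and in fibroblast-like cells (right), as CPM per library (points; open points rest on fewer than 20 cells) and pooled with its 95% Poisson interval (line), on an axis that is logarithmic above 1. The library points of the pair overlap for Col5a2 and lie apart for the other 9 genes.

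Transmembrane collagens summed to 363 CPM in endocardial-like, 171 CPM in lymphatic-like, 149.6 CPM in valve-type endocardial-like, 112 CPM in pericyte-like and 78.2 CPM in venous-like cells, against 8.14 CPM in fibroblast-like cells. Smooth muscle-like (8.61 CPM), capillary-like (11.99 CPM) and arterial-like cells (12.6 CPM) were close to the fibroblast-like level. Col23a1 was at 208, 209.8, 193 and 243 CPM in endocardial-like cells, against 3.42, 4.17, 5.65 and 5.41 CPM in fibroblast-like cells. Lymphatic-like cells were next with 216, 96.5, 144 and 159 CPM, above endocardial-like cells in library 1 only. Pooled, the endocardial level of 219.7 CPM was 1.39 times (1.10 to 1.77) the lymphatic one of 159 CPM. Valve-type endocardial-like cells had 85.9 CPM and arterial-like, venous-like and capillary-like cells 1.77, 0.227 and 0.611 CPM. At 1000 UMIs per cell, 17.9% of endocardial-like, 14.8% of lymphatic-like, 0.374% of fibroblast-like and 0.133% of B cell-like cells had a Col23a1 UMI (unthinned 44.5%, 22.1%, 2.27% and 0.715%).

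Col25a1, known from motor neurons and muscle, was at 107, 139, 137 and 140.1 CPM in endocardial-like cells and at 91.9, 144, 132 and 107 CPM in pericyte-like cells. The library ranges overlapped, and the pooled levels, 129.8 and 107 CPM, did not differ beyond counting error (ratio 1.22, 0.995 to 1.501). Fibroblast-like cells had 1.69, 2.19, 0.628 and 0.760 CPM, below each of them. Col13a1, known from cell contacts and the neuromuscular junction, was at 71.1, 48.6, 93.9 and 61.0 CPM in venous-like cells, a class named on 4 of its 7 markers and led by Kirrel3. The Wif1 Postn cluster had 40.3 CPM (54 UMIs) and was the higher in library 2, and fibroblast-like cells 2.95, 1.37, 1.67 and 1.01 CPM. With the stricter cell filter venous-like cells had 19.8 CPM and the Wif1 Postn cluster was highest, and with doublets kept or collagen genes in the clustering an unnamed cluster led by Kirrel3 was highest. Under the stricter filter the venous-like class was also the highest for Col5a2, above the 417 CPM of the Wif1 Postn cluster. In the main setting that cluster was highest for Col5a2, so the venous-like name need not cover the same cells. Col17a1, the transmembrane collagen of epithelial hemidesmosomes, had 50 UMIs, the skin anchoring-fibril chain Col7a1 59 and the growth-plate chain Col10a1 40, with at most 20 of a gene's UMIs in fibroblast-like cells. Of the 22 members, 4 were at least 2-fold higher in endocardial-like cells (Col5a2, Col13a1, Col23a1 and Col25a1; 4.95% of genes) and 4 in pericyte-like cells (Col5a3, Col24a1, Col25a1 and Col27a1; 9.85% of genes), where Col24a1 had only 4 UMIs. Transmembrane types gave 34.8% of the members' UMIs in endocardial-like cells, 6.42% in pericyte-like cells and 0.147% in fibroblast-like cells. The share was also high in other endothelial classes, at 39.6% in lymphatic-like, 30.0% in venous-like and 21.7% in valve-type endocardial-like cells.

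The balance between partner chains differed by class. In fibroblast-like cells 0.554 Col1a1 UMIs were counted per Col1a2 UMI (0.546 to 0.563), and in libraries 1 to 4 the ratio was 0.593, 0.526, 0.515 and 0.540. Epicardial-like cells had 0.271 (0.237 to 0.309) and pericyte-like cells 0.294 (0.210 to 0.405), each below fibroblast-like cells in every library. Endocardial-like cells had 0.0751 (0.0572 to 0.0971), with 0.121, 0.0720, 0.0156 and 0.0574 in the libraries. There Col1a2 stood at 90.1 CPM and Col1a1 at 6.77 CPM, close to the 4.39 CPM of B cell-like cells, whose ratio was 0.522 (0.337 to 0.798). Col1a2 was higher in endocardial-like than in B cell-like cells in each library (80.2 to 108 CPM against 2.54 to 27.3 CPM), while a single cell gave 38.1% of the 63 Col1a1 UMIs. The ratio of Col3a1 to Col1a2 was 0.867 (0.784 to 0.958) in endocardial-like cells, 3.17 (2.95 to 3.40) in epicardial-like cells and 2.08 (2.05 to 2.10) in fibroblast-like cells.

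In type V the ratio was low in several endothelial classes. Col5a1 per Col5a2 was 0.0125 (0.00642 to 0.0219) in arterial-like and 0.0218 (0.0112 to 0.0384) in venous-like cells, from 12 Col5a1 UMIs each, 0.0425 (0.0359 to 0.0500) in endocardial-like cells, 0.0414 (0.0299 to 0.0560) in valve-type endocardial-like cells, 0.193 (0.155 to 0.237) in the Wif1 Postn cluster and 0.686 (0.670 to 0.702) in fibroblast-like cells. The library ratios were 0.0361 to 0.0461 in endocardial-like and 0.635 to 0.753 in fibroblast-like cells, without overlap. Col5a3 per Col5a1 was 5.37 (3.98 to 7.36) in pericyte-like, 2.81 (1.96 to 4.10) in Schwann-like and 0.781 (0.760 to 0.802) in fibroblast-like cells; the pericyte-like ratios of libraries 1 to 4 were 5.09, 7, 5.33 and 5.6, above the 0.709 to 0.862 of fibroblast-like cells. In type VI, Col6a3 per Col6a1 was 0.0779 (0.0454 to 0.126, from 18 Col6a3 UMIs) in epicardial-like, 0.230 (0.166 to 0.315) in pericyte-like, 1.07 (0.904 to 1.27) in endocardial-like and 0.538 (0.526 to 0.550) in fibroblast-like cells. Col6a1 per Col6a2 varied less, from 0.541 in macrophage-like cells (20 Col6a1 UMIs) to 1.72 in endocardial-like cells, with 1.10 in fibroblast-like cells. RNA ratios are not ratios of chains in the protein, and the ratios Col3a1 to Col1a2 and Col5a3 to Col5a1 were added after the levels had been seen.

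**Figure D4:**
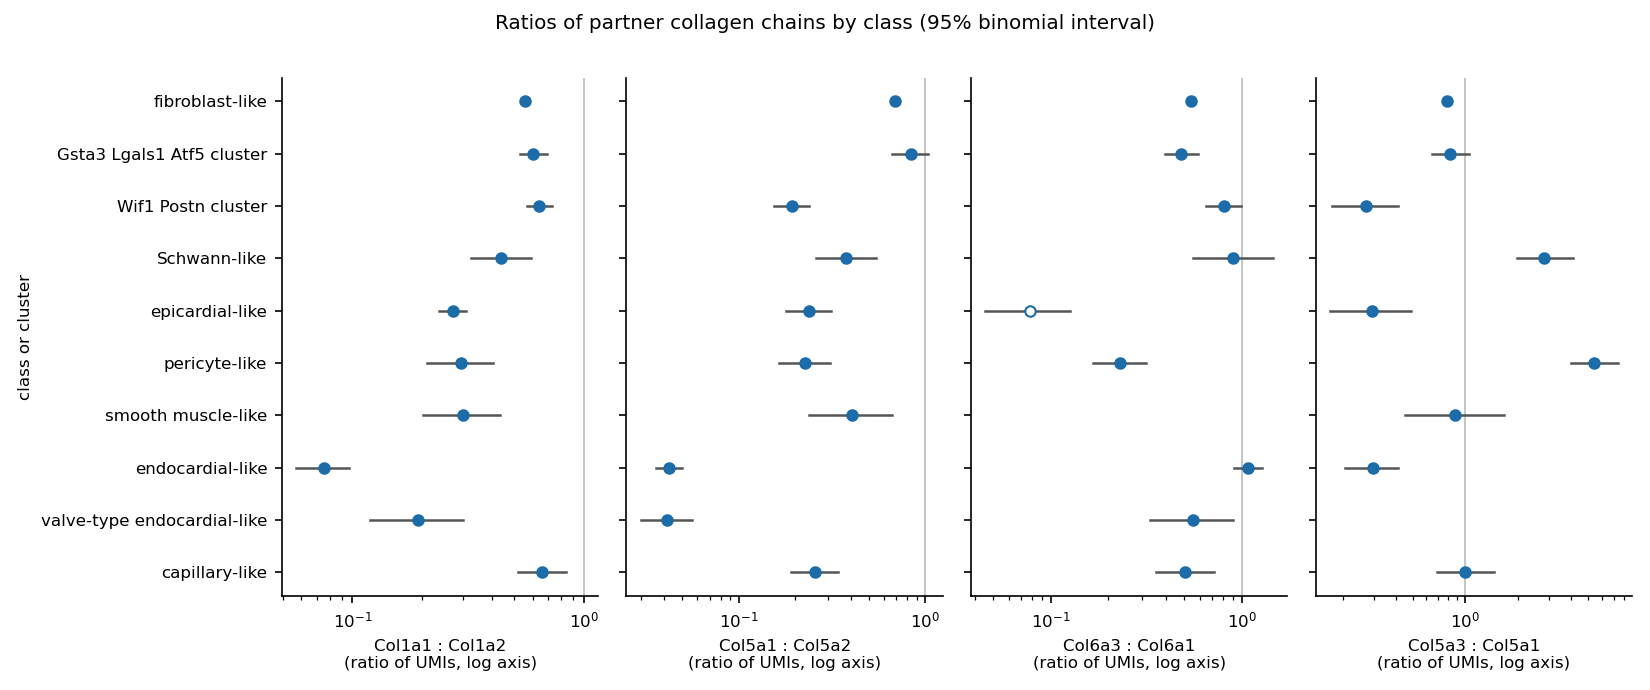
Ratio of the UMIs of partner collagen chains (x axes, logarithmic, different ranges) in 10 classes or clusters (rows), with 95% conditional binomial intervals; the open point rests on fewer than 20 UMIs of 1 chain, and the grey line marks a ratio of 1. Among the plotted classes, which leave out arterial-like and venous-like cells, endocardial-like cells are lowest for Col1a1 to Col1a2, both endocardial classes for Col5a1 to Col5a2 and epicardial-like cells for Col6a3 to Col6a1, whereas pericyte-like cells are highest for Col5a3 to Col5a1.

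Fibroblast-like cells were divided into 13 sub-clusters, again without collagen or pathway genes, of which 7 were named from fixed lists. The summed level was 8941 CPM (8776 to 9109) in the smaller Pi16 Cd248-type sub-cluster (number 10, 153 cells, led by Opcml and Igfbp5) and 8852 CPM (8696 to 9011) in the Mfap4 Osr1-type sub-cluster (number 8, 240 cells), against 4486 to 6153 CPM in the other 11. In the larger Pi16 Cd248-type sub-cluster (number 3, 1010 cells) it was the lowest, 4486 CPM. Both were above the other sub-clusters' pooled sums in every library, 8020 to 10057 CPM in number 10 and 7550 to 10884 CPM in number 8. Col3a1 was at 3257, 3715, 3716 and 4025 CPM in number 10 and 3253, 4447, 4870 and 3365.5 CPM in number 8, against 1383, 1644, 1801 and 1311 CPM in number 3. Pi16 Cd248-type cells of both sub-clusters together stood at 0.905 times (0.897 to 0.914) the sum of the other fibroblast-like cells.

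Single chains moved apart between the sub-clusters. Col14a1 was at 1018, 1196, 1167 and 1144 CPM in number 10 and at 861 CPM pooled in number 8, against 145, 175, 107 and 166 CPM in number 0, the Cxcl14 Smoc2 Dpep1-type sub-cluster of 1624 cells. Col6a3 went the other way: 434, 403, 492 and 379 CPM in number 0 and 392 CPM pooled in number 6, the Ccl2 Ccl7-type, against 89.9, 66.7, 62.2 and 56.1 CPM in the unnamed number 4 and 81.0 CPM in number 8. Col5a3 was likewise at 320.3 CPM in number 0 and 317 CPM in number 6, against 61.2 CPM in number 4 and 43.4 CPM in number 8. Col6a6 was at 169.7 CPM in number 0, against 20.5 CPM in number 3, but at 122 CPM in number 8, where Col6a3 was low. Col6a3 and Col6a6 had their highest levels in the 77 cells of number 11 (432 and 230.2 CPM, from 90 and 48 UMIs). That sub-cluster had the lowest depth, a median of 2480 UMIs per cell, and its Col6a3 level lay within the library range of number 0. Col26a1 was at 21.9 CPM from 222 UMIs in number 0 and had 0 UMIs in number 8. Col1a1 and Col1a2 varied less, 2.32-fold and 3.10-fold between the highest and the lowest sub-cluster, with the highest levels in number 8 (913 CPM) and number 10 (1799.5 CPM). The lowest Col1a2 level was that of the shallow number 11 (580 CPM, 121 UMIs), and the next lowest that of number 3 (708 CPM).

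Several less abundant members had high levels in other sub-clusters. Col12a1 was at 67.5 CPM in number 10 (84 of its 333 UMIs in fibroblast-like cells), against 3.82 CPM in number 3. Col24a1 was at 14.4 CPM in number 4 (92 of 126 UMIs), Col13a1 at 17.1 CPM in the unnamed number 5 (50 of 103 UMIs; libraries 4.38 to 32.7 CPM) and Col16a1 at 53.9 CPM in the Postn Cilp-type number 12 (30 UMIs, 66 cells). Col27a1 was highest in number 11 (67.2 CPM, 14 UMIs) and next in number 5 (61.6 CPM, 180 UMIs), against 5.63 CPM from 7 UMIs in number 10. In sub-cluster 12, whose markers Postn and Cilp are known from matrix-producing fibroblasts of the injured heart, the sum was 5364 CPM and Col6a6 had 0 UMIs. Of the 13 members with at least 1000 UMIs in fibroblast-like cells, 10 differed 3-fold or more between their highest and lowest sub-cluster, against 54.4% of 6930 genes with as many UMIs, and the median ratio was 3.27 for the members and 3.24 for all these genes. Among these 10, the shallow number 11 was the highest or the lowest for Col1a2, Col3a1, Col5a1, Col6a1, Col6a3, Col6a6 and Col27a1. The count was not repeated without that sub-cluster. Sub-cluster 9 (194 cells) carried endothelial genes at 2947 CPM, against 86.8 to 160 CPM in the others, and its sum was 5091 CPM.

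**Figure D5:**
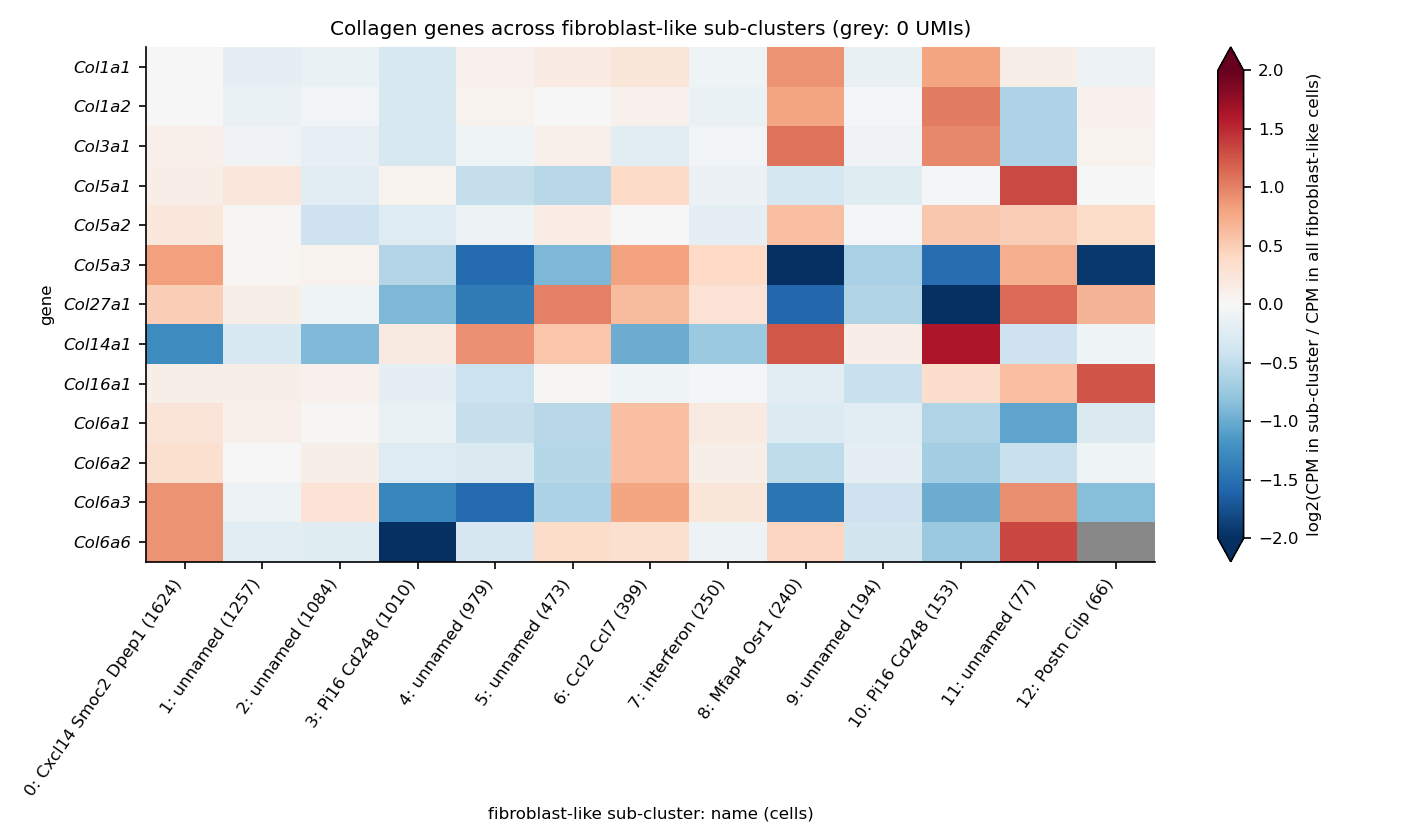
Level of the 13 collagen genes with at least 1000 UMIs in fibroblast-like cells in each of 13 sub-clusters (columns, with cell numbers), as log2 of the ratio to all fibroblast-like cells; colours end at -2 and 2, and grey marks 0 UMIs. Types I and III and Col14a1 are raised in sub-clusters 8 and 10, where Col5a3, Col27a1 and Col6a3 are lowered, and Col14a1 is lowered in sub-cluster 0, where Col5a3, Col6a3 and Col6a6 are raised.

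Making a collagen takes hydroxylases, chaperones, export factors, propeptide proteases and cross-linking enzymes, and cells read the matrix through collagen receptors. Of 57 genes in 6 such lists, 55 had 100 UMIs or more and 37 of these were at least 2-fold higher in fibroblast-like cells than in other cells (11.6% of all genes), while 15 of the 52 with 20 UMIs in the highest class were highest in fibroblast-like cells (3.09%). Of the propeptide proteases and enhancers, 7 of 8 were at 2-fold and 5 of 8 highest in fibroblast-like cells. Pcolce2, an enhancer of the C-proteinase, was at 513 CPM there (libraries 471 to 573), Pcolce at 512 CPM and 570.2 CPM in the Gsta3 Lgals1 Atf5 cluster, and the N-proteinase Adamts2 at 224 CPM. Tll1, a tolloid-like C-proteinase, was a lymphatic and epicardial gene, at 394 CPM in lymphatic-like, 234 CPM in epicardial-like and 118 CPM in endocardial-like cells and at 0.685 CPM in fibroblast-like cells. Of the cross-linking enzymes 4 of 5 were at 2-fold, Loxl1 at 413 CPM, Loxl2 at 119 CPM and Loxl3 at 22.3 CPM in fibroblast-like cells.

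The general steps were shared more widely. Of 12 listed genes for proline and lysine hydroxylases or their partner proteins with 100 UMIs, 9 were 2-fold higher in fibroblast-like cells but 0 of 11 were highest there. In the Gsta3 Lgals1 Atf5 cluster, highest for Ppib and Crtap, the fibroblast list scored highest of all lists but fell just short of the name. Ppib (560.5 CPM), P4hb (243 CPM) and P4ha1 (133 CPM) had the highest levels of the list in fibroblast-like cells, and their own highest classes were in the Gsta3 Lgals1 Atf5 cluster (712 CPM), the Saa3 Slpi Cxcl13 cluster (249 CPM) and pericyte-like cells (160.1 CPM). P3h2, a prolyl 3-hydroxylase, was at 154 CPM in the Wif1 Postn cluster, 153 CPM in smooth muscle-like, 121 CPM in Schwann-like and 8.26 CPM in fibroblast-like cells, and P3h4 at 167 CPM in epicardial-like and 51.3 CPM in fibroblast-like cells. Plod1 and Plod3 were highest in the Nrp2 Pcdh17 Nav3 cluster (167 CPM) and the Saa3 Slpi Cxcl13 cluster (132 CPM). Of the 11 folding and export genes 6 were at 2-fold, among them the collagen chaperone Serpinh1 (533 CPM, and 578 CPM in the Gsta3 Lgals1 Atf5 cluster) and the coat protein Sec24d (124 CPM). The export factor Mia3 was highest in fibroblast-like cells (131 CPM) but under 2-fold. The highest class of Mia2 was non-classical monocyte-like (281 CPM), that of Colgalt2 the Dach1 Ablim3 Ccdc85a cluster (164 CPM) and that of Colgalt1 dendritic-like (107 CPM).

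Of the 6 fibril regulators 5 were at 2-fold in fibroblast-like cells. Dcn stood at 13137 CPM, Sparc at 2373 CPM and Lum at 1647 CPM there, and the highest levels were those of Dcn (16212 CPM), Lum (1805 CPM) and Thbs2 (109 CPM) in the Wif1 Postn cluster, Sparc (7039 CPM) in Schwann-like cells and Fmod (235 CPM) in epicardial-like cells, where fibroblast-like cells had 1.22 CPM. Among 13 receptor and uptake genes, 6 were at 2-fold. Ddr2, a receptor for fibrillar collagens, was highest in fibroblast-like cells (297 CPM), whereas the related Ddr1 was highest in epicardial-like cells (119 CPM). The integrin chains Itga1 (1250.1 CPM) and Itgb1 (1132 CPM) peaked in pericyte-like cells, with 50.7 and 476 CPM in fibroblast-like cells, and Itga2 in NK cell-like cells (167 CPM). Antxr1, a receptor for type VI and other collagens, was at 206 CPM in Schwann-like cells, against 197 CPM in fibroblast-like cells. Antxr2 (1713 CPM) peaked in neutrophil-like cells, Adgrg1 (161 CPM) in the Dach1 Ablim3 Ccdc85a cluster and the immune inhibitory receptor Lair1 (351 CPM) in non-classical monocyte-like cells.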

How the data were processed

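The labels describe 2 stroke and 2 control samples, whose counts the authors deposited as 1 joined table of UMI counts per gene and barcode (whole numbers, not normalized). Per the file header and the submitters' processing notes, they come from Cell Ranger 7.1.0 and build mm10. The labels do not say how libraries were joined, or whether depths were equalised or introns counted.

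Barcodes with at least 500 UMIs, 250 genes and at most 15% mitochondrial UMIs were kept (821 failed). Scrublet (scanpy 1.11.5) removed 1445 doublets; in library 3 its threshold marked 0.0113%, so the median of the other libraries was used. Cells were clustered on 2000 variable genes, without 101 collagen and pathway genes, by 30 components, 15 neighbours and Leiden resolution 1 (leidenalg 0.10.2), with no batch correction. Names came from 26 marker lists and, where 2 endothelial lists scored alike, from shorter endocardial lists; the least mean log2 fold of 1, the tie rule within endothelial classes and the division of mixed clusters were set after clusters had been seen. UMIs were summed per class of at least 50 cells, or 100 if unnamed, and ratios to other cells use 1 CPM added. Named genes: every member, values per library for the 6 with most fibroblast-like UMIs and for each whose highest class is another, and of each pathway list the 3 highest in fibroblast-like cells and those at 100 CPM or more elsewhere. Members and lists were chosen with earlier results of these data known. Alternatives were a stricter cell filter, doublets kept, resolution 2, all genes in the clustering, equal weight per cell, thinning to 1000 UMIs, each library left out, another CPM offset and no count filter. The planned tests of stroke over control were not run, since libraries could not be tied to samples.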

Additional observations from a re-analysis of the deposited data

How the results depend on the processing

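No paired analysis was possible because no library could be tied to a numbered sample, so the replicate block and the count models planned for stroke over control were not run. The summed level in fibroblast-like cells was 5496 CPM with the stricter cell filter, 5509.6 at Leiden resolution 2, 5428 with cells weighted equally, 5428 with cells thinned and 5453 to 5734 with each library left out. Their share of the members' UMIs was 89.8%, 82.2% with doublets kept, 89.2%, 88.7% with collagen genes in the clustering, 81.0%, 82.3%, 87.3% to 89.7% and 88.1% without the sub-cluster with endothelial genes, the last chosen after seeing the data. The ratio of Pi16 Cd248-type to other fibroblast-like cells was 0.944, 0.924 with doublets kept, 0.943, 0.927 with collagen genes in the clustering, 0.917 with cells thinned and 0.867 to 0.936. Col1a1 per Col1a2 was 0.563 with cells weighted equally and 0.529 to 0.566 with a library left out. The thinned share with a Col3a1 UMI was 74.1% to 77.1%, and 98.0% with all UMIs. The causes were not tested. The counts of 10, 16 and 15 genes ranged over 9 to 10, 12 to 17 and 12 to 20. The totals they were counted from changed as well, over 16 to 20, 17 to 34 and 47 to 54 genes. Of 20 members 16 kept their highest class in all 11 settings; Col5a2, Col12a1, Col13a1 and Col26a1 did not, and Col12a1 was highest in the Wif1 Postn cluster without library 4. Of 218 values of single members 156 lay within the counting interval and 1 moved by over 1.5 times, Col13a1 in venous-like cells (19.8 CPM with the stricter filter). The class of that name need not hold the same cells under the stricter filter, where it was also the highest for Col5a2. Depth limits the members under 100 UMIs and values of the 114 Schwann-like cells.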
